A study of Mus musculus with 12 samples.

Results

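The genes described here are 10 markers of adipose progenitors, the stromal cells of fat that can become adipocytes: Pdgfra, Pdgfrb, Ly6a, Dpt, Dpp4, Pi16, Cd55, Icam1, F3 and Fap. The list was drawn up with earlier results of these data known, and its genes were found by symbol among the 54134 genes of the count table, where each had 1 gene identifier. All 10 passed the filter on low counts, as did 15585 genes in all. RNA was sequenced from the inguinal white adipose tissue (iWAT) of 12 male C57BL/6J mice, 6 that received AAV-GFP and 6 that received AAV-Notum. Both groups were injected at 8 weeks of age with 1e+12 genome copies of an AAV8 vector, whose cargo (green fluorescent protein or mouse Notum) was driven by the liver-specific promoter of thyroxine binding globulin. They were kept on chow for 4 weeks and fasted for 4 h before tissue was taken. NOTUM protein was not measured in the data used here. Notum, a secreted enzyme that removes the lipid group Wnt proteins need to signal, had 1 to 17 reads in the iWAT of each AAV-GFP mouse. In AAV-Notum iWAT it had 8 to 16 reads in 4 mice, 560 in mouse S_2032 and 433 in mouse S_2041, so these reads check the group labels only in part. The question was whether the markers of the cells from which adipocytes arise differed between the groups in this whole tissue.

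Adipose progenitors lie in the stroma around vessels and in the connective tissue that wraps the fat lobules. PDGF receptor alpha (Pdgfra), PDGF receptor beta (Pdgfrb), the surface protein SCA-1 (Ly6a) and the matrix protein dermatopontin (Dpt) mark most of the pool. Within it, cells of the interstitium carry the dipeptidyl peptidase DPP4, peptidase inhibitor 16 (Pi16) and the complement regulator CD55. ICAM1, an adhesion molecule, marks preadipocytes that are committed to become fat cells, tissue factor (F3, also known as CD142) marks a further stromal population, and fibroblast activation protein (Fap), a protease related to DPP4, marks activated fibroblasts. None of these genes is restricted to progenitors: mural cells carry PDGF receptor beta, and lymphocytes carry DPP4, ICAM1, SCA-1 and CD55.

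Total counts ran from 14711113 to 21618860 per mouse, and RNA integrity numbers from 5.7, in AAV-GFP S_2011, to 7.6. The RNA of AAV-GFP S_2012 was isolated on another date than that of the other mice. The adipocyte hormone adiponectin (Adipoq) was at 2194 to 5222 CPM (counts scaled to the library size) in every mouse, so transcripts of the labelled tissue were present. AAV-GFP mice S_2011 and S_2014 stood apart in transcripts of lymphoid cells: the 15 lymphoid markers summed to 16.1 and 10.1 CPM there and to at least 279.7 CPM in each of the other 10 mice. Of the 15, only Cd28 was at 0 in any mouse (2 mice), and all 15 were higher in mean in AAV-Notum mice, none at an unadjusted p under 0.05. Fold changes and counts below are therefore given with these mice and, for the markers and the named genes, also without them. In this whole tissue, fewer progenitors and less RNA per progenitor cannot be told apart.

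Pdgfra had the smallest p of the 10 markers and was lower in mean in AAV-Notum mice, a difference that passed at an unadjusted p but not after adjustment by edgeR. PDGF receptor alpha is the receptor tyrosine kinase by which adipose progenitors are usually sorted. Pdgfra (ENSMUSG00000029231, chr5:75152292-75198215 of GRCm38, plus strand) had a lowest, median and highest level of 60.4, 75.0 and 112.5 CPM in AAV-GFP mice and of 54.5, 59.1 and 63.0 CPM in AAV-Notum mice. AAV-GFP S_2012 and S_2011 were the highest, and 4 of 6 AAV-Notum mice lay under the lowest AAV-GFP mouse, S_2014. The means were 58.5 ± 3.26 CPM in AAV-Notum and 82.1 ± 20.1 CPM in AAV-GFP mice (SD, n = 6 each), a fitted ratio of 0.713. The log2 fold change (AAV-Notum over AAV-GFP, with its standard error, SE) was -0.49 ± 0.14 (SE, unadjusted p = 0.00407, adjusted p = 0.167 over all genes tested, quasi-likelihood test of edgeR). A two-sided exact permutation test on this gene gave p = 0.00649, and DESeq2 gave an adjusted p of 0.0343. When AAV-GFP S_2011 and S_2014 were left out, the log2 fold change was -0.50 (edgeR adjusted p = 0.4275). The groups then did not overlap for Pdgfra, because S_2014 was the only AAV-GFP mouse within the AAV-Notum range. Without overlap the exact permutation p takes the smallest value that 4 mice against 6 allow, 0.00476. Leaving out 1 mouse at a time gave log2 fold changes from -0.56 to -0.38, the smallest without AAV-GFP S_2012, and edgeR adjusted p from 0.0914 to 0.365.

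The AAV-Notum mice were also closer to each other in Pdgfra. Its SD in AAV-GFP mice was 6.16 times that in AAV-Notum mice, a ratio that 1.10% of all genes tested reached, where the median gene had a ratio of 1.16. For Dpt the ratio was 4.78, which 1.89% of genes reached. These were the 2 highest ratios of the 10 markers, and those of the other markers ran from 0.831 (F3) to 1.888 (Fap). With AAV-GFP S_2011 and S_2014 left out the SD in AAV-GFP mice was 20.1 CPM for Pdgfra and 282.4 CPM for Dpt. No test was made of this difference in spread.

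Dpt was the most abundant marker and had the lowest log2 fold change of the 10. Dermatopontin is a small protein of the extracellular matrix that binds collagen and decorin. Dpt (ENSMUSG00000026574, chr1:164796644-164824266, plus strand) had a lowest, median and highest level of 553.1, 1063 and 1546 CPM in AAV-GFP mice and of 536.1, 614.7 and 775.4 CPM in AAV-Notum mice. AAV-GFP S_2011 and S_2014 were the highest of all, at 1546 and 1475 CPM, while AAV-GFP S_2013 and S_2022 lay within the AAV-Notum range. The means were 1050 ± 419 and 621.4 ± 87.6 CPM (SD, n = 6 each), a log2 fold change of -0.76 ± 0.25 (SE, unadjusted p = 0.00998, adjusted p = 0.221, edgeR). The exact permutation p was 0.0433 and the DESeq2 adjusted p was 0.05965. Without AAV-GFP S_2011 and S_2014 the value for Dpt was -0.40 (exact permutation p = 0.190), and it was no longer called at an unadjusted edgeR p under 0.05. The RNA of S_2011, with the highest level, had the lowest integrity number, and with that number as a covariate the value was -0.56 (adjusted p = 0.5146, edgeR).

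Fap was the third marker that was lower at an unadjusted p. Its protease cuts gelatin and type I collagen and is seen on activated fibroblasts. Fap (ENSMUSG00000000392, chr2:62500943-62574075, minus strand) had a lowest, median and highest level of 17.3, 20.1 and 25.8 CPM in AAV-GFP mice and of 15.7, 16.4 and 20.3 CPM in AAV-Notum mice. Only AAV-Notum S_2042 reached into the AAV-GFP range, and the other 5 lay under the lowest AAV-GFP mouse. For Fap the log2 fold change came to -0.30 ± 0.11 (SE, unadjusted p = 0.0188, adjusted p = 0.266, edgeR), and the exact permutation p was 0.0238. When AAV-GFP S_2011 and S_2014 were left out, it was -0.27 (exact permutation p = 0.0381). Fap and Dpp4 are neighbors, 88.7 kb apart on chromosome 2 and on the same strand, with none of the 3 annotated genes between them passing the filter, yet their mean differences were of opposite sign.

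Pdgfrb, the PDGF receptor shared by progenitors and mural cells, was lower in mean by a margin that missed the threshold. Pdgfrb (ENSMUSG00000024620, chr18:61045150-61085061, plus strand) had 78.5 ± 12.2 CPM in AAV-GFP and 66.4 ± 8.34 CPM in AAV-Notum mice (SD, n = 6 each). The AAV-GFP mean exceeded each of the 6 AAV-Notum values, 2 of which were under the AAV-GFP range. Its log2 fold change was -0.24 ± 0.12 (SE, edgeR adjusted p = 0.365, exact permutation p = 0.0779). Leaving out AAV-GFP S_2013 or S_2014, or AAV-Notum S_2033 or S_2042, brought its unadjusted edgeR p under 0.05, with adjusted p from 0.195 to 0.4805. With AAV-GFP S_2011 and S_2014 left out the value was -0.23 (exact permutation p = 0.124). Of 11 mural cell markers, 2 were also lower at an unadjusted p and none was higher, beside 9.54% of all genes tested that were lower, and 3 were lower without those mice, beside 4.95%, and the part of mural cells in the Pdgfrb difference was not tested.

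Ly6a was the marker of the whole pool with the opposite sign. SCA-1 is anchored in the membrane by a lipid tail and is used with PDGF receptor alpha to sort mouse progenitors. Ly6a (ENSMUSG00000075602, chr15:74994877-74998031, minus strand) had a lowest, median and highest level of 131.1, 168.4 and 243.2 CPM in AAV-GFP mice and of 179.8, 214.7 and 248.5 CPM in AAV-Notum mice. Every AAV-Notum mouse was above the AAV-GFP mean, but AAV-GFP S_2012 was higher than all except AAV-Notum S_2032. It had a log2 fold change of 0.28 ± 0.13 (SE, edgeR adjusted p = 0.362, exact permutation p = 0.05195). Without AAV-GFP S_2012 the value was 0.40 (adjusted p = 0.289, edgeR) and without AAV-Notum S_2031 it was 0.33 (adjusted p = 0.466), both under 0.05 before adjustment. Without AAV-GFP S_2011 and S_2014 it was 0.16 (exact permutation p = 0.219).

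None of the interstitial markers differed beyond the spread between mice. Dpp4 (ENSMUSG00000035000, chr2:62330073-62412231, minus strand), a protease that trims incretins and chemokines, had a lowest, median and highest level of 7.03, 32.0 and 62.0 CPM in AAV-GFP mice and of 24.5, 53.1 and 77.8 CPM in AAV-Notum mice. AAV-GFP S_2014 and S_2011 were far below the rest, at 7.03 and 8.18 CPM. A log2 fold change of 0.65 ± 0.50 (SE, exact permutation p = 0.154) became 0.18 (exact permutation p = 0.676) without them. Cd55 (ENSMUSG00000026399, chr1:130439027-130462744, minus strand), which speeds the decay of complement convertases, had 83.1 ± 25.8 CPM in AAV-GFP and 102.3 ± 21.3 CPM in AAV-Notum mice (SD, n = 6 each). Its lowest mice were again AAV-GFP S_2014 and S_2011, at 52.4 and 53.1 CPM, and its log2 fold change went from 0.30 ± 0.21 (SE, exact permutation p = 0.182) to 0.06 (exact permutation p = 0.786) without them. Leaving out S_2014 alone gave 0.20. Its paralog Cd55b had at most 5 reads in any mouse.

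Pi16, a secreted protein that marks fibroblasts of the fat interstitium, was lower in mean in AAV-Notum mice. Pi16 (ENSMUSG00000024011, chr17:29317680-29330593, plus strand) had a lowest, median and highest level of 21.4, 52.2 and 86.4 CPM in AAV-GFP mice and of 23.6, 44.9 and 68.3 CPM in AAV-Notum mice. The groups overlapped over nearly the whole range, with AAV-GFP S_2014 the lowest and AAV-GFP S_2012 the highest mouse. For Pi16 the log2 fold change was -0.32 ± 0.34 (SE, exact permutation p = 0.4935). Since AAV-GFP S_2011 and S_2014 were low, the difference was larger without them, -0.64 (exact permutation p = 0.100). Leaving out AAV-GFP S_2012 gave -0.13, and leaving out AAV-Notum S_2032 gave -0.51.

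Icam1 and F3 were within the spread between mice. Icam1 (ENSMUSG00000037405, chr9:21015985-21028817, plus strand), the ligand to which leukocyte integrins bind, had a lowest, median and highest level of 16.9, 39.8 and 102.9 CPM in AAV-GFP mice and of 35.3, 70.9 and 87.1 CPM in AAV-Notum mice. Both extremes were AAV-GFP mice, S_2014 and S_2022, and the reads of Icam1 differed by up to 32.3% between the deposited tables. From the normalized table the log2 fold change of Icam1 was 0.70, and that of Dpp4 was 1.00. For Icam1 the log2 fold change was 0.44 ± 0.42 (SE, exact permutation p = 0.180), and 0.05 (exact permutation p = 0.762) without AAV-GFP S_2011 and S_2014. It ran from 0.26 without S_2014 to 0.79 without S_2022. F3 (ENSMUSG00000028128, chr3:121723537-121735048, plus strand), the receptor that starts coagulation by binding factor VII, had 40.3 ± 9.96 CPM in AAV-GFP and 35.4 ± 12.0 CPM in AAV-Notum mice (SD, n = 6 each). AAV-Notum S_2042 was the highest and AAV-Notum S_2031 the lowest mouse, so the AAV-Notum range held the whole AAV-GFP range, and the log2 fold change was -0.19 ± 0.23 (SE, exact permutation p = 0.398). It was -0.08 (exact permutation p = 0.762) without AAV-GFP S_2011 and S_2014, -0.09 without AAV-Notum S_2031 and -0.37 without AAV-Notum S_2042. By edgeR the adjusted p of these 5 markers ran from 0.4807 to 0.649.

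**Figure D1:**
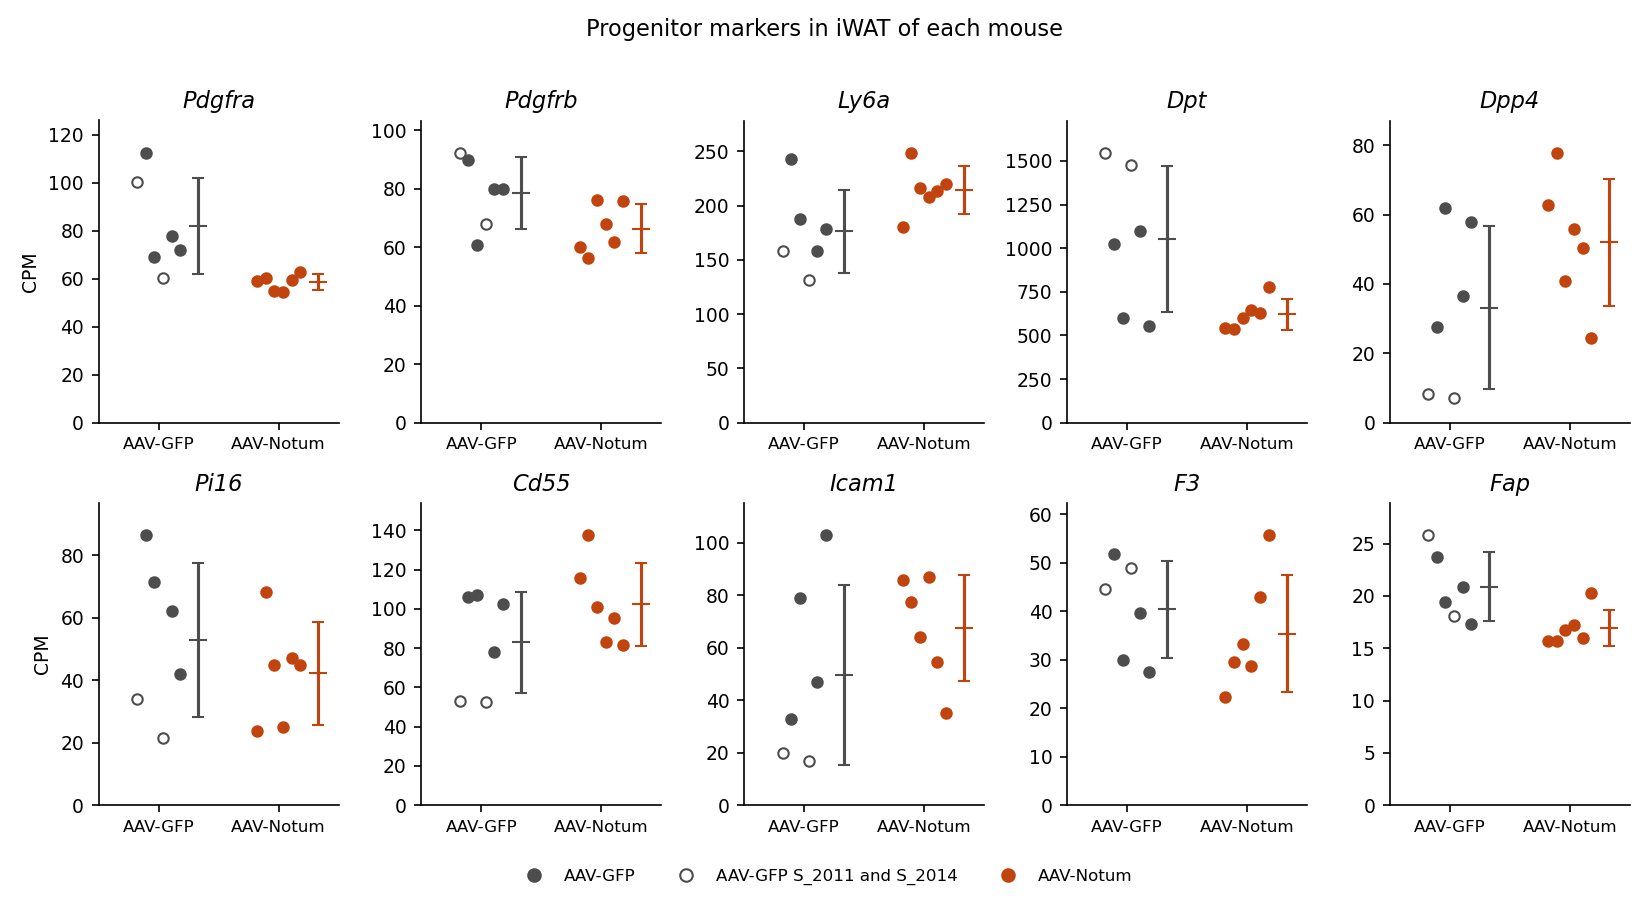
CPM of the 10 markers (vertical axes, linear, from 0) in the iWAT of each mouse, with open circles for AAV-GFP S_2011 and S_2014 and with the mean and SD of each group (n = 6) beside the points. The AAV-Notum mice lie close together for Pdgfra (54.5 to 63.0 CPM) and Dpt (536.1 to 775.4 CPM), and the open circles are the lowest points for Dpp4, Cd55 and Icam1 and the highest for Dpt.

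Counted together, 3 of the 10 markers (Pdgfra, Dpt and Fap) were lower at an unadjusted edgeR p under 0.05, where 9.54% of all genes tested were, and none was higher, where 4.64% were. No marker passed at an adjusted p by edgeR, which called 0.0513% of genes in either direction. DESeq2 called 1, Pdgfra, where it called 2.83% of genes as lower. None was without overlap between the groups, as 0.693% of genes were on the lower side. The log2 fold change was below 0 for 6 markers and above 0 for 4, the median being -0.22. Over all genes 48.8% were below 0 and the median was 0.01. The 3 lower markers kept an unadjusted p under 0.05 whichever single mouse was left out. When AAV-GFP S_2011 and S_2014 were left out, there were 2, Pdgfra and Fap, beside 4.95% of genes lower in the same fit, and 1 marker, Pdgfra, was without overlap, beside 0.969% of genes. S_2014 was the only AAV-GFP mouse within the AAV-Notum range of Pdgfra.

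Several markers moved with the lymphoid transcripts from mouse to mouse. The lymphoid score, the mean log2 CPM of the 15 lymphoid markers, was 3.34 ± 3.13 in AAV-GFP and 5.89 ± 0.78 in AAV-Notum mice (SD, n = 6 each). AAV-GFP S_2011 and S_2014 formed a cluster of their own at -0.13 and -0.65, so the relation was computed over the other 10 mice, on log2 CPM centered within each group. There Icam1 and Dpp4 were higher where the score was higher. Pearson's r was 0.90 for Icam1 (exact permutation p = 5.208e-04, adjusted p = 0.00174 over the 10 markers; Spearman's rho 0.842, p = 0.00735, adjusted p = 0.0245). It was 0.87 for Dpp4 (exact permutation p = 3.472e-04, adjusted p = 0.00174; rho 0.903, p = 7.523e-04, adjusted p = 0.00752). Without AAV-GFP S_2012 and AAV-Notum S_2042, the mice with scores farthest from the median, r was 0.854 for Icam1 and 0.897 for Dpp4.

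F3, Fap, Dpt and Pdgfra went against the score in these 10 mice. For F3, r was -0.852 (exact permutation p = 5.208e-04, adjusted p = 0.00174; rho -0.879, p = 0.00162, adjusted p = 0.0081) and it was the same, -0.852, without the farthest mice. For Fap, r was -0.883 (exact permutation p = 0.00243, adjusted p = 0.00608; rho -0.758, p = 0.0207, adjusted p = 0.0509), and -0.603 without them. The r of Dpt was -0.719 (exact permutation p = 0.0223, adjusted p = 0.0394; rho -0.818, p = 0.0255, adjusted p = 0.0509), and -0.697 without them. Pdgfra rested on the farthest mice: its r of -0.868 (exact permutation p = 0.0236, adjusted p = 0.0394; rho -0.721, p = 0.0414, adjusted p = 0.0640) was -0.078 without them. Pdgfrb, Ly6a, Pi16 and Cd55 had permutation p from 0.0855 to 0.4378 for r, and the rho of Pdgfrb was -0.697 (exact permutation p = 0.0448, adjusted p = 0.0640). Without the farthest mice the r of Pdgfrb went from -0.674 to -0.483, that of Pi16 from -0.399 to -0.21, that of Ly6a from -0.599 to 0.24 and that of Cd55 from 0.246 to 0.70.

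**Figure D2:**
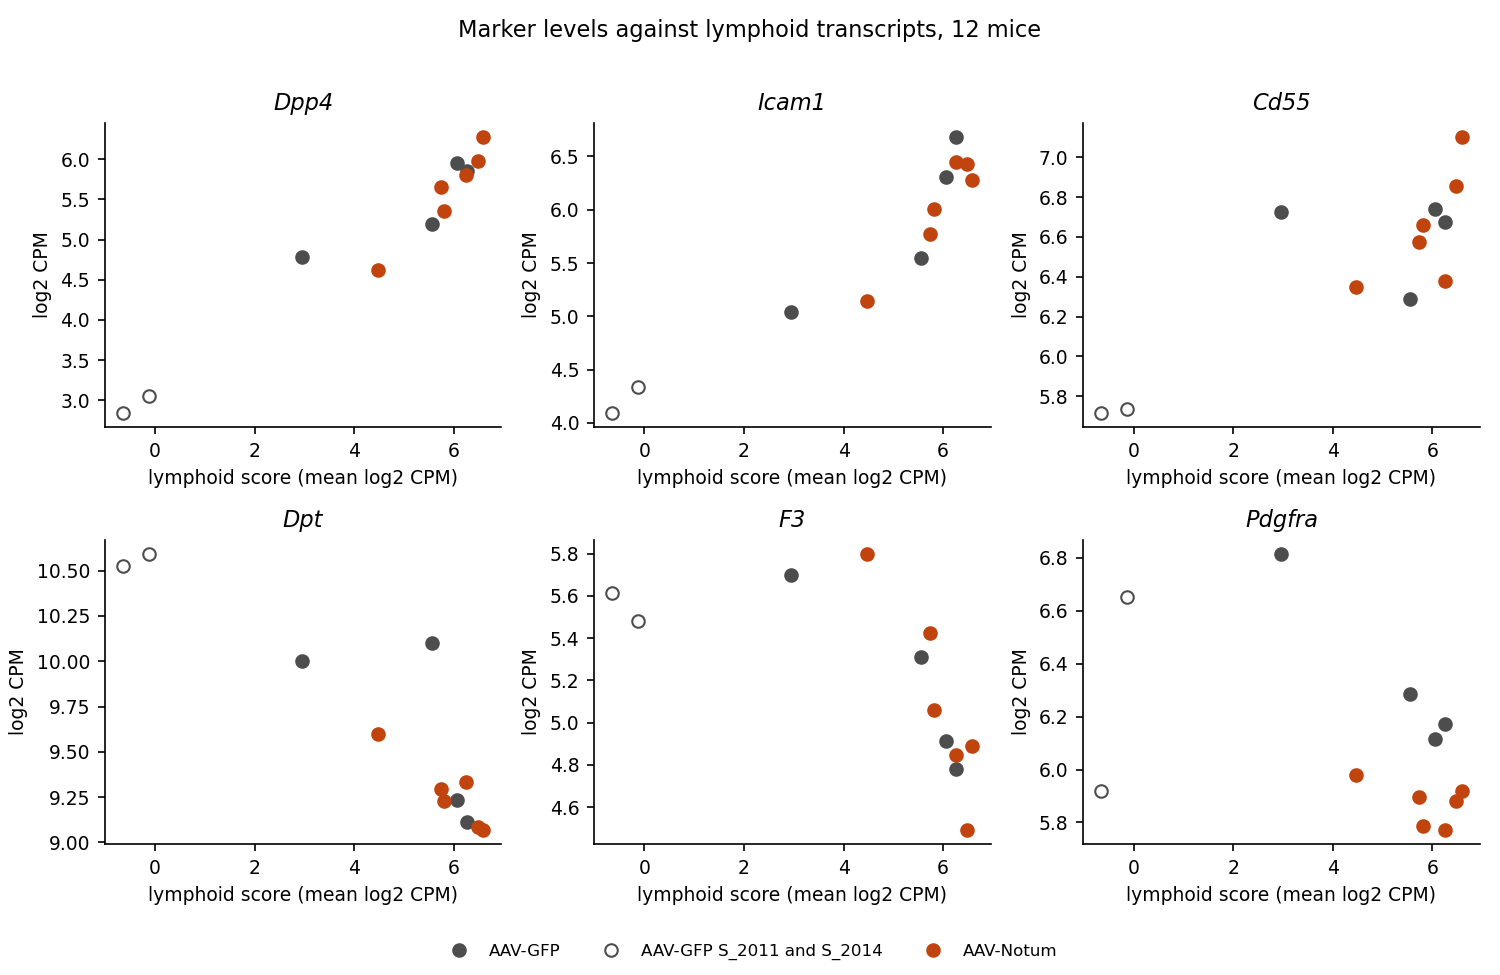
Log2 CPM of 6 markers (vertical axes) against the lymphoid score (horizontal axes, mean log2 CPM of 15 lymphoid markers) in 12 mice, with open circles for AAV-GFP S_2011 and S_2014. Dpp4 and Icam1 are higher and Dpt and F3 lower at higher scores, while the AAV-Notum mice lie below the AAV-GFP mice of like score for Pdgfra.

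With the lymphoid score as a covariate in the edgeR fit, 1 marker was lower at an unadjusted p, Pdgfra, with a log2 fold change of -0.42 (adjusted p = 0.441), beside 4.95% of genes lower in that fit. The estimates of Dpt (-0.25, adjusted p = 0.677) and Fap (-0.20, adjusted p = 0.6255) were smaller than without the covariate. Dpp4, Icam1 and Cd55, the markers other than Ly6a that were higher in mean, were at -0.13, -0.20 and -0.02 and thus of opposite sign, and F3 was at 0.12 in place of -0.19. Ly6a stayed above 0, at 0.19, and Pi16 was at -0.63. All 6 AAV-Notum scores were at 4.47 or above, so the score and the treatment partly overlap. The part of lymphoid cells in these differences was not tested.

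**Figure D3:**
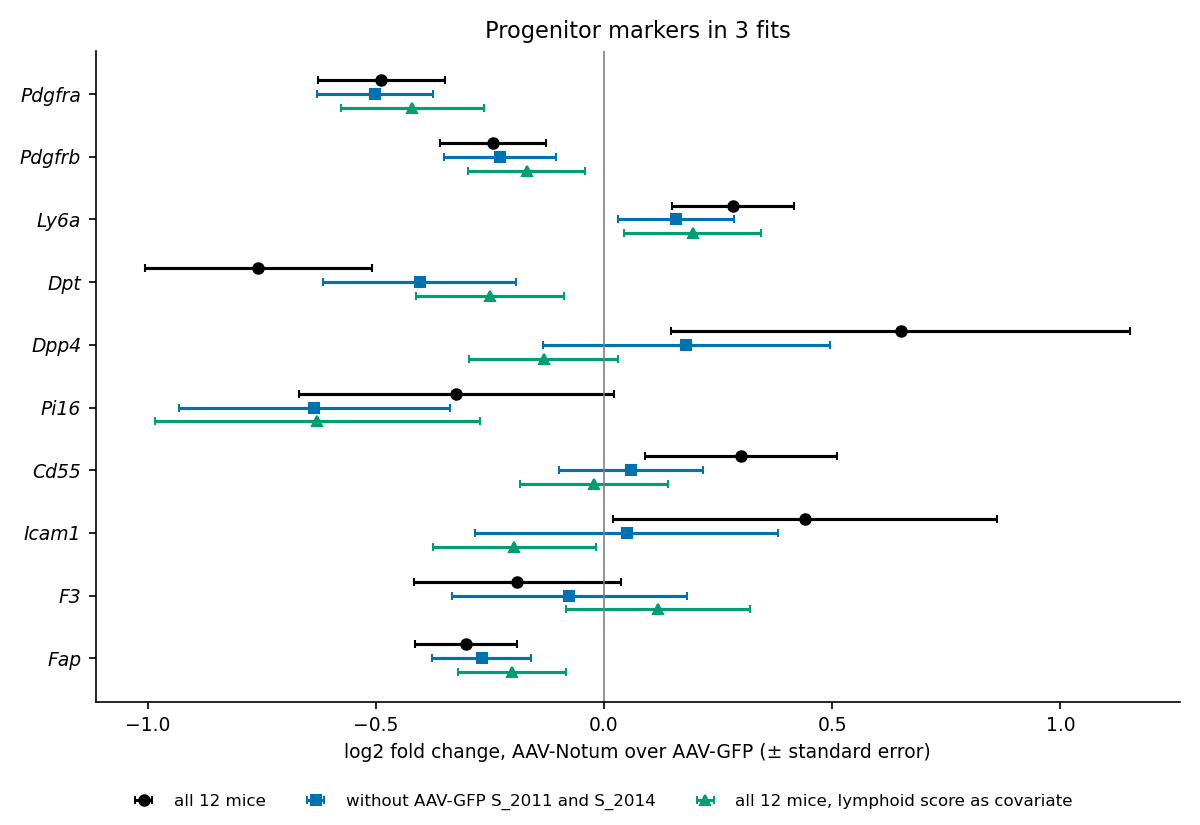
Log2 fold change (horizontal axis, AAV-Notum over AAV-GFP, with standard errors) of each marker in 3 edgeR fits: all 12 mice, without AAV-GFP S_2011 and S_2014, and all mice with the lymphoid score as a covariate. Pdgfra stays between -0.50 and -0.42, whereas Dpp4, Cd55 and Icam1 move from above 0 toward or below 0.

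The markers also divided into groups by how they moved together within the treatment groups. Over the same 10 mice, and given as a description without a test, Icam1 and Dpp4 had an r of 0.894 with each other, and Fap, Dpt and F3 had r from 0.76 to 0.831 among themselves. Between these sets the values were negative, from -0.94 for Icam1 and F3 to -0.806 for Dpt and Dpp4. Ly6a and Pi16 had an r of 0.707. Pi16 and Dpp4, both markers of the interstitial population, had an r of -0.213, and Pdgfra and Fap one of 0.663. The pairs share libraries, and so share their depth and cell content.

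**Figure D4:**
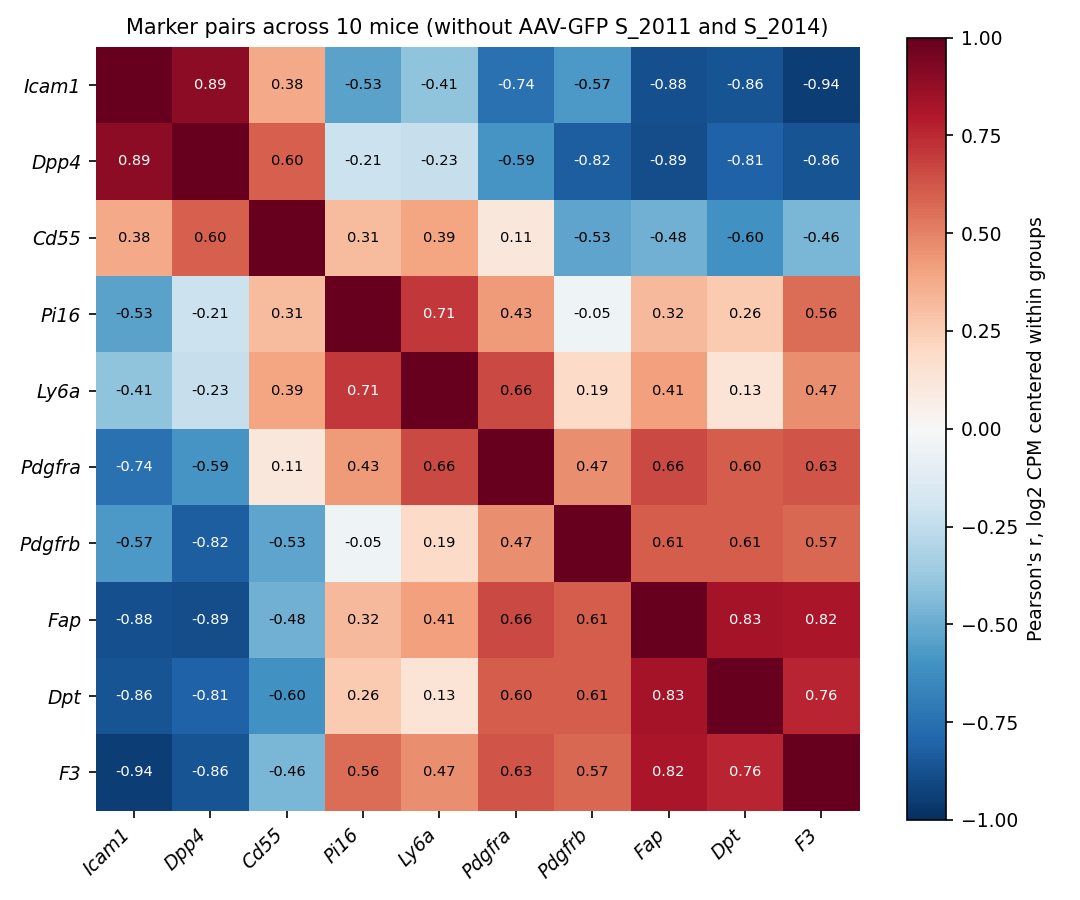
Pearson's r of each marker pair over 10 mice (color scale from -1 to 1; log2 CPM centered within groups; AAV-GFP S_2011 and S_2014 left out). Icam1 and Dpp4 form a positive pair (0.894) that is negative against Fap, Dpt and F3.

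For each marker the 3 genes most like it over all 12 mice were looked up among the genes tested, again with log2 CPM centered within groups and as a description only. The collagen genes Col1a2 and Col1a1 led for Pdgfra (r = 0.931) and Fap (r = 0.955), and the r over the 10 mice was 0.911 and 0.928. Timp2, an inhibitor of matrix proteases, and Twnk, the mitochondrial DNA helicase, followed for Pdgfra, and Nav1 and the proteoglycan gene Dcn for Fap. Dpp4 was most like Ifi209 (r = 0.995, and 0.981 over 10 mice), Ms4a4c and Trim30b, and Icam1 was most like Cxcr3 (r = 0.994, and 0.992 over 10 mice), Dusp5 and Uhrf1. Cxcr3 encodes a chemokine receptor of T cells. Pi16 was most like Smpd3 (r = 0.937), Dact2 and Aldh1a3, and Ly6a was most like Lgals8 (r = 0.927), Smpd3 and Ecm1, so Smpd3 was on both lists. Smpd3 and Dact2 were also in the list of interstitial progenitor genes. Dpt was most like Itgb5 (r = 0.985), Mtch1 and Syp, F3 like Lmo7 (r = 0.981), Rbfox2 and Tfdp2, Cd55 like Dusp11 (r = 0.965), Adamts6 and Noc3l, and Pdgfrb like Vipas39 (r = 0.956), Hypk and Olfm2.

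Promoters are shown for the pair that moved together and for F3 and Dpt, which moved against it. A window of 300 bases was searched for 7 of the 10 markers. It ran from 250 before to 50 after the start of transcription in the RefSeq annotation of GRCm38.p6. Each is written 5′ to 3′ on the gene's strand, with capitals where one of 3 motifs, searched on both strands, was found: the core bound by TCF/LEF, the factors of Wnt signaling (CTTTGA), the GAS element bound by STAT factors (TTCNNNGAA), and the TATA box (TATAAA). The positions are chr2:62412182-62412481 (minus strand) for Dpp4, chr9:21015690-21015989 (plus) for Icam1, chr3:121723287-121723586 (plus) for F3 and chr1:164796413-164796712 (plus) for Dpt.
Dpp4: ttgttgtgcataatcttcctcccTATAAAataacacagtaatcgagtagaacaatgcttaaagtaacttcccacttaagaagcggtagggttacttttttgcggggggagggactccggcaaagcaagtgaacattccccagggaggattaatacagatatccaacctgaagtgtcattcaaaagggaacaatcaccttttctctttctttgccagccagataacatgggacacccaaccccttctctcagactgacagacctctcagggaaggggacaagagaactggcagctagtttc
Icam1: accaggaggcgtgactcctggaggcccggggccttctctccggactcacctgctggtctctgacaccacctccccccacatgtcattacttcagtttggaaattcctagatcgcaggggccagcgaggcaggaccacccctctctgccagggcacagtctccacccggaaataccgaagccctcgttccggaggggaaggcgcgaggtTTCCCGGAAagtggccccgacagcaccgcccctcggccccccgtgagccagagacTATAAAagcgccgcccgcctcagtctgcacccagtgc
F3: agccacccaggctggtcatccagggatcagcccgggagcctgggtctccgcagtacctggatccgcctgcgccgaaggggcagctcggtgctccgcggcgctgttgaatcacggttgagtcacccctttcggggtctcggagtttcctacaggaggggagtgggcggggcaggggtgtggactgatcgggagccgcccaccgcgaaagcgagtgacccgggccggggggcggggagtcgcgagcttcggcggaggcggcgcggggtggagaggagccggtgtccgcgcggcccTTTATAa
Dpt: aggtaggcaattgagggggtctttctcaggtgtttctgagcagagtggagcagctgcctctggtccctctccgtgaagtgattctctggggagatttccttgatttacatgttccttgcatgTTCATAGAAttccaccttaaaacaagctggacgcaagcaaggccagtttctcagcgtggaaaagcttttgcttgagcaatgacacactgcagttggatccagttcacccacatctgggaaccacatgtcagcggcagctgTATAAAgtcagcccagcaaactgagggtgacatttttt

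Pdgfrb, Ly6a and Fap were not searched for motifs. None of the 7 windows searched held the TCF/LEF core, which 16.0% of 32544 promoter windows of this length held. A GAS element was found in 2 of them, in Icam1 starting 42 bases before the start of transcription and in Dpt starting 128 bases before it, and 8.33% of all windows held one. Offsets are counted from the RefSeq start, which for Icam1 and Dpt is not the gene start given above. The TATA letters were in the windows of Dpp4, Icam1, F3 and Dpt, and in 13.6% of all windows. In Dpp4 they started 227 bases before the start of transcription, and in Dpt and Icam1 12 and 13 bases after it. In F3 they started 43 bases after it, on the opposite strand. They did not overlap the other motifs, and whether they act as a TATA box was not tested. The windows of Dpp4 and Dpt were 45.3% and 48.7% G and C, and those of Icam1 and F3 64.7% and 70.3%.

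By level per length of exon, the markers spanned a wide range in AAV-GFP mice. Dpt was first, at 609.3 ± 243.1 RPKM (CPM divided by kilobases of exon; SD, n = 6), and Ly6a second, at 146.2 ± 31.7. Next were Cd55 (17.1), F3 (16.0), Pdgfrb (14.3), Icam1 (11.4), Pi16 (8.32), Pdgfra (8.19), Dpp4 (5.25) and Fap (3.69). Dpt was above Ly6a, and Ly6a above Cd55, in all 6 mice (exact sign-flip permutation p = 0.03125, the smallest that 6 mice allow, adjusted p = 0.141 over 9 pairs). The other neighbors in this order did not differ beyond their spread (permutation p from 0.1875 to 0.875). In AAV-Notum mice Dpt, Ly6a, Cd55 and Fap held the same ranks, while Icam1 was the fourth and Dpp4 the seventh. Without S_2011 and S_2014 Icam1 was also the fourth in AAV-GFP mice, at 14.98 RPKM, next to F3 at 14.71.

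Genes that go with each marker were taken from 10 lists with 79 distinct genes tested. Of these, 20 were lower and 2 higher at an unadjusted edgeR p under 0.05, where 9.54% of all genes tested were lower and 4.64% higher. Their median log2 fold change was -0.18. None passed at an adjusted p by edgeR, and 7 did by DESeq2 (Creb5, Cxcl14, Fmo2, Serpinf1, Thbd, Tfpi and Tfpi2), where DESeq2 called 2.83% of genes as lower. The count of lower genes was 13 without AAV-GFP S_2011 and S_2014 and 9 with the lymphoid score as a covariate, and 4.95% of all genes were lower in each of those fits. It was 31 without AAV-GFP S_2022, where 13.6% of all genes were lower. Among markers of other cell types, beside the same 9.54%, 3 of 10 endothelial, 2 of 9 macrophage and 2 of 8 hepatocyte markers were lower at an unadjusted p. With AAV-GFP S_2011 and S_2014 left out these counts were 1, 2 and 3, beside 4.95%. The summed hepatocyte markers ran from 45.8 to 5437 CPM in AAV-GFP and from 24.1 to 784.4 CPM in AAV-Notum mice. Those of skeletal muscle ran from 8.68 to 877.2 CPM in AAV-GFP and from 7.41 to 4088 CPM in AAV-Notum mice. All 6 muscle markers had a log2 fold change above 0, none at an unadjusted p under 0.05. No adipocyte marker of 9 was lower or higher at that threshold. The part of these cells in the list counts was not tested.

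Of 15 genes of interstitial progenitors, 3 were lower (Creb5, Mfap5 and Ackr3) and none higher, beside 9.54% of all genes lower. Without AAV-GFP S_2011 and S_2014 4 were lower, beside 4.95%, and 4 were lower with the lymphoid score as a covariate. The microfibril gene Mfap5 was at 27.6 ± 7.05 CPM in AAV-GFP and 18.8 ± 4.00 CPM in AAV-Notum mice (SD, n = 6 each), a log2 fold change of -0.56 ± 0.19 (SE, adjusted p = 0.2305, edgeR). Creb5, a transcription factor, was at -0.62 (adjusted p = 0.195 from edgeR and 0.0451 from DESeq2) and Ackr3, a scavenging chemokine receptor, at -0.55 (adjusted p = 0.265). When AAV-GFP S_2011 and S_2014 were left out, the values were -0.61 for Mfap5, -0.57 for Creb5 and -0.65 for Ackr3. The median of the list was -0.30, and -0.41 without those mice. Leaving out AAV-GFP S_2022 or AAV-Notum S_2042 raised the count of lower genes to 6, and the share of all genes lower to 13.6% and 13.4%.

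Among 14 genes of committed preadipocytes 5 were lower and none higher, beside 9.54% of all genes lower. A single gene was lower without AAV-GFP S_2011 and S_2014 and with the lymphoid score as a covariate, which is near the 4.95% of all genes in each of those fits, and 1 was lower with RNA integrity as a covariate, beside 5.95%. With a single mouse left out the count ran from 1 (AAV-GFP S_2011 or AAV-Notum S_2031) to 8 (AAV-GFP S_2022), beside 7.0%, 6.67% and 13.6% of all genes lower in these fits in that order. DESeq2 gave 8 at an unadjusted p, beside 11.0%. The gene that stayed lower without both mice was Cxcl14, a chemokine of the stroma. Cxcl14 ranged from 31.4 to 137.6 CPM in AAV-GFP mice and from 13.8 to 31.4 CPM in AAV-Notum mice, with means of 63.4 ± 40.3 and 22.1 ± 7.32 CPM (SD, n = 6 each). Only the edges of these ranges overlapped. Its log2 fold change was -1.52 ± 0.37 (SE, adjusted p = 0.140, edgeR; DESeq2 adjusted p = 0.00512), and -0.91 without those mice. Ebf2, a transcription factor of brown and beige precursors, was at -0.70 (adjusted p = 0.286) and Sparcl1, a secreted matrix protein, at -0.54 (adjusted p = 0.2905). With AAV-GFP S_2011 and S_2014 left out they were at -0.41 and -0.38, and neither was lower at an unadjusted p.

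The list of partners of tissue factor held its count of lower genes without AAV-GFP S_2011 and S_2014 and in every fit that left out a single mouse: 3 of 5 were lower and none higher, beside 9.54% of all genes lower. With the lymphoid score as a covariate 2 were lower, beside 4.95%. Thbd, thrombomodulin, which turns thrombin toward the anticoagulant protein C, ranged from 59.2 to 218.6 CPM in AAV-GFP mice and from 51.0 to 70.3 CPM in AAV-Notum mice. The ranges overlapped from 59.2 to 70.3 CPM. For Thbd the log2 fold change was -1.20 ± 0.26 (SE, adjusted p = 0.115, edgeR; DESeq2 adjusted p = 0.00129). Tfpi and Tfpi2, inhibitors of the tissue factor pathway, were at -0.69 and -0.89 (adjusted p = 0.170 and 0.146 from edgeR, 0.0343 and 0.0243 from DESeq2), and F3 itself was at -0.19. Endothelial cells also carry Thbd and Tfpi, and without AAV-GFP S_2011 and S_2014 the values were -0.84 for Thbd, -0.47 for Tfpi and -0.91 for Tfpi2.

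The list of PDGF ligands, which also holds the receptor-like Pdgfrl, had 3 lower genes of 5 and none higher, beside 9.54% of all genes lower. None was lower with the lymphoid score as a covariate, where 4.95% of genes were, and 2 or 3 were with a single mouse left out, beside 6.67% to 13.6%. Pdgfb, the ligand that endothelial cells give to mural cells, had 42.1 ± 8.98 CPM in AAV-GFP and 32.5 ± 2.99 CPM in AAV-Notum mice (SD, n = 6 each), a log2 fold change of -0.37 ± 0.13 (SE, adjusted p = 0.235, edgeR). Pdgfc, a ligand of PDGF receptor alpha, was at -0.59 (adjusted p = 0.242) and Pdgfd, a ligand of PDGF receptor beta, at -0.70 (adjusted p = 0.305). Without AAV-GFP S_2011 and S_2014, 1 of them, Pdgfb, remained lower at an unadjusted p, beside 4.95% of all genes. It was at -0.37 there, while Pdgfc was at -0.34 and Pdgfd at -0.42.

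Of 12 general stromal genes 4 were lower and none higher, beside 9.54% of all genes lower, and 3 were lower without AAV-GFP S_2011 and S_2014, beside 4.95%. With the lymphoid score as a covariate 1 was lower, near the 4.95% of genes in that fit, and without AAV-GFP S_2022 6 were, beside 13.6%. Serpinf1, the secreted factor PEDF, was at -0.86 (adjusted p = 0.154 from edgeR and 0.0157 from DESeq2), Eng, the TGF-beta co-receptor endoglin, at -0.57 (adjusted p = 0.214), and Itgb1, integrin beta 1, at -0.31 (adjusted p = 0.236). Without those mice they were at -0.57, -0.57 and -0.23, and Itgb1 was no longer lower at an unadjusted p. Of 9 genes of the CD142-positive stromal cell 2 were lower, beside 9.54% of all genes: Fmo2 (-0.72, adjusted p = 0.189 from edgeR and 0.0376 from DESeq2) and Inmt (-0.65, adjusted p = 0.301), both enzymes of small molecule metabolism. When AAV-GFP S_2011 and S_2014 were left out, 1 was lower, Fmo2 (-0.63), with Inmt at -0.53, beside 4.95% of genes lower. The count was 1 with the lymphoid score or RNA integrity as a covariate, beside 4.95% and 5.95% of genes. With a single mouse left out it ran from 1 to 4, and the 4 were reached without AAV-GFP S_2013, AAV-GFP S_2022 or AAV-Notum S_2042, where 11.4%, 13.6% and 13.4% of genes were lower.

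The enzyme family of DPP4 and FAP (5 tested), the complement regulators (3 tested) and the ICAM family with its integrin partners (5 tested) had no gene at an unadjusted edgeR p under 0.05. Under other settings 1 complement regulator was lower. This held with DESeq2, RLE size factors or the filter of at least 1 count, beside 11.0%, 9.86% and 5.88% of all genes lower. It also held without AAV-GFP S_2013, AAV-GFP S_2022 or AAV-Notum S_2042, beside 11.4%, 13.6% and 13.4%. In the enzyme family 1 gene was higher with the filter of at least 1 count, beside 3.98% of all genes higher. The normalized table also gave 1 higher gene of this family, beside 7.38%. All 5 of the ICAM list were above 0, with a median of 0.42, and 0.19 without AAV-GFP S_2011 and S_2014. The median was -0.06 with the lymphoid score as a covariate, and thus of opposite sign. In the Ly6 family 2 of 7 were higher and none lower, beside 4.64% of all genes higher: Ly6e (0.36, adjusted p = 0.2925) and Ly6k (1.24, adjusted p = 0.328). None was higher without those mice (0.27 and 0.73), where 2.16% of genes were, or with the lymphoid score or RNA integrity as a covariate, beside 4.68% and 2.98%. With a single mouse left out 0 to 2 were higher, beside 2.88% to 10.3%. Without AAV-GFP S_2022 or AAV-Notum S_2042 1 was lower, beside 13.6% and 13.4% of genes lower. Ly6k was near the limit of detection, at 0.675 ± 0.523 CPM in AAV-GFP and 1.60 ± 0.632 CPM in AAV-Notum mice (SD, n = 6 each).

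**Figure D5:**
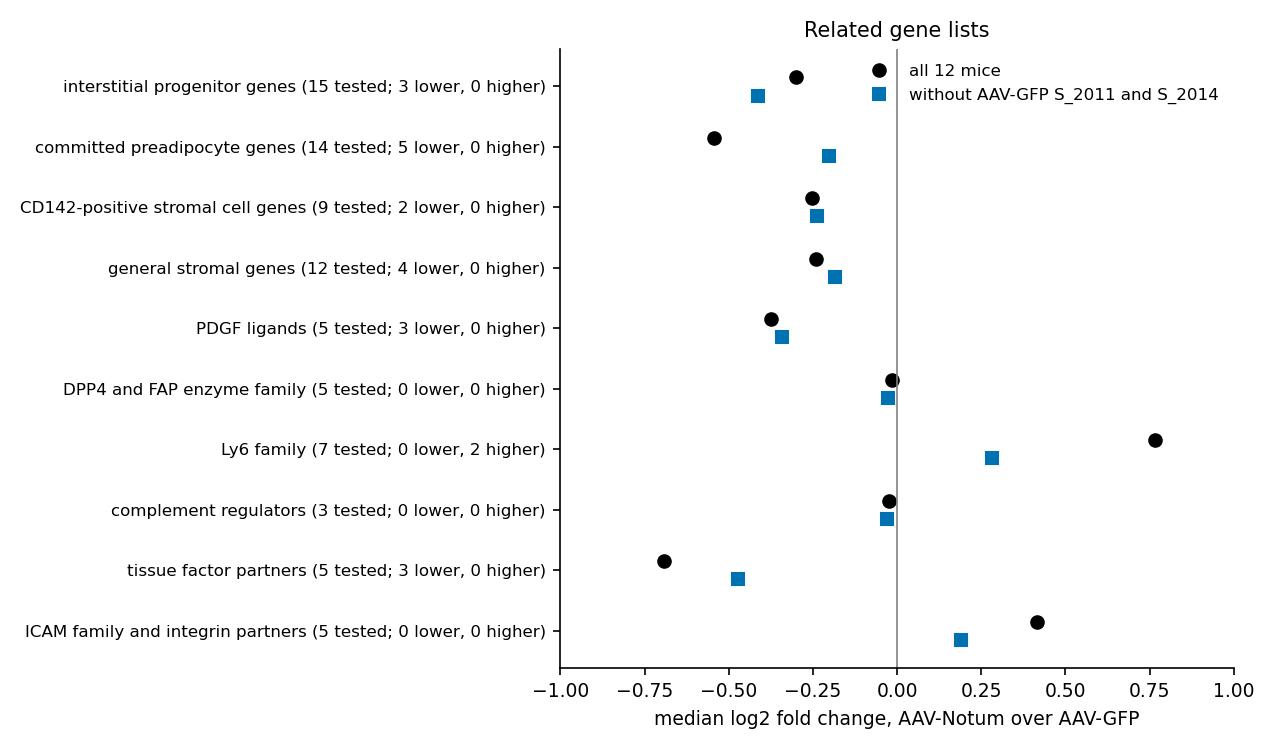
Median log2 fold change (horizontal axis, AAV-Notum over AAV-GFP) of each related gene list with all 12 mice and without AAV-GFP S_2011 and S_2014, with the genes tested and those lower or higher at an unadjusted edgeR p under 0.05 beside each name. The committed preadipocyte list moves from -0.54 to -0.20 and the Ly6 family from 0.77 to 0.28 when those mice are left out, and the PDGF list moves little (-0.37 and -0.34).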

How the data were processed

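RNA-seq of iWAT from 12 mice was analyzed, 6 AAV-GFP and 6 AAV-Notum, grouped by the sample labels; each label names a mouse, and replicate numbers were not shared between groups. The authors made TruSeq libraries from total RNA, ran them on a HiSeq4000 (single-end) and aligned the reads to mm10 with STAR 2.3.1 (submitters' processing notes). The counting program is not given in the sources used here, nor whether it used strand. The deposited raw table holds counts per gene without normalization. A further table deposited by the authors holds log2 values of normalized counts, used only in an alternative. The reads behind both tables differed by up to 32.3% for Icam1 and by at most 3.13% for the other markers. Every sample column was used.

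Low counts were removed by filterByExpr (at least 10, and 15 in total), and the rest were TMM-normalized and tested two-sided with the quasi-likelihood test of edgeR 4.0.16 in R 4.3.3, with Benjamini-Hochberg adjustment over 15585 genes and a threshold of 0.05. The fit was tested on simulated data. CPM are counts scaled to TMM library sizes, and their log2 uses a prior count of 2. Two-sided exact permutation tests compared mean log2 CPM over every assignment of 6 mice to each group, and cannot give a p below 0.00217. The relation to the lymphoid score was permuted within groups (17280 assignments). Positions and exon lengths are from GENCODE vM21 (GRCm38). Antisense genes that overlap the exons of Pdgfra, Dpp4, Cd55 and Icam1 had at most 87 reads in all. Alternatives were DESeq2 1.42.0, RLE size factors, looser and stricter count filters, a robust fit, a covariate (the lymphoid score or the RNA integrity number), the normalized table with limma 3.58.1, each mouse left out, and AAV-GFP S_2011 and S_2014 left out.

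The 10 markers, the related lists and the left-out mice were chosen with earlier results of these data known. Named genes are the markers, up to 3 genes of smallest unadjusted p under 0.05 in each related list, and the 3 genes most correlated with each marker. Figures were drawn with matplotlib 3.10.9.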

Additional observations from a re-analysis of the deposited data

Results flagged for a closer look

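Fap in AAV-Notum S_2042 was 20.3 CPM, far from the other 5 AAV-Notum mice, which lay between 15.7 and 17.3 CPM. The gap was 0.652 of the range of the group. In 20 groups of 6 mice checked for such a mouse (10 markers in each treatment group) this was the only one, and chance gives about 1 in 20. AAV-Notum S_2042 also had the lowest lymphoid score of its group, 4.47, and the highest F3, 55.6 CPM. Without it the log2 fold change of Fap was -0.36.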

How the results depend on the processing

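Over 21 alternative settings, 205 of 210 values of the 10 markers kept their direction and their side of the adjusted threshold. No marker passed that threshold in the main fit, so this count does not measure how far the estimates moved. Dpt counts as kept with the lymphoid score as a covariate, where it went from -0.76 to -0.25. The log2 fold change of Pdgfra passed the adjusted threshold with DESeq2 (-0.48, adjusted p = 0.0343), so DESeq2 called 1 marker where edgeR called none. The edgeR adjusted p of Pdgfra ran from 0.0914 to 0.365 with 1 mouse left out. With the lymphoid score as a covariate Dpp4 (-0.13), Cd55 (-0.021), Icam1 (-0.20) and F3 (0.12) changed sign, and 1 marker in place of 3 was lower at an unadjusted p; the fit holds the score as a further term, and the cause was not tested. DESeq2 gave 4 markers lower at an unadjusted p, with Pdgfrb added, beside 11.0% of all genes. RNA integrity as a covariate gave 0.41 for Dpp4, 0.28 for Icam1 and 0.16 for Cd55, against 0.65, 0.44 and 0.30. The count of markers higher at an unadjusted p was 1 (Ly6a) with DESeq2 or RLE size factors, beside 5.68% and 4.65% of all genes. It was also 1 (Ly6a) with the filter of 10 counts in every mouse or the normalized table, beside 5.14% and 7.38%. With 1 mouse left out it was 0 to 1, beside 2.88% to 10.3%. Of the related genes, 20 were lower in the main fit, beside 9.54% of all genes. With the lymphoid score 9 were lower and without AAV-GFP S_2011 and S_2014 13, beside 4.95% in each fit. With 1 mouse left out 15 to 31 were lower, beside 6.67% to 13.6%. The 2 higher ones, beside 4.64% of all genes, became 1 with the filter of 10 counts in every mouse, beside 5.14%. With either covariate (lymphoid score, RNA integrity) they became 0, beside 4.68% and 2.98%, as they did without AAV-GFP S_2011 and S_2014, beside 2.16%. With 1 mouse left out there were 0 to 3, beside 2.88% to 10.3%. The cause was not tested. No paired analysis was possible because the groups share no replicate numbers. Leaving out the mouse of the other isolation date, AAV-GFP S_2012, gave -0.38 for Pdgfra. Markers had 118 to 27591 reads per mouse, so Dpp4 in AAV-GFP S_2014, with the fewest, carries the most counting error.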
